A study of Mus musculus with 15 samples.

Results

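Axon guidance ligands and receptors were followed in RNA-seq of mouse yolk sac (YS) erythro-myeloid progenitors (EMPs), blood progenitors that arise from YS endothelium. The members were the genes whose symbol starts with *Efna*, *Efnb*, *Epha*, *Ephb*, *Sema*, *Plxna*, *Plxnb*, *Plxnc*, *Plxnd*, *Nrp*, *Slit*, *Robo* or *Ntn*, directly followed by a digit. This gave 57 of the 17454 genes of the deposited table. They comprised 31 ligands (8 ephrins, 18 semaphorins, 3 Slits and 2 netrins) and 26 receptors (11 Eph receptors, 9 plexins, 2 neuropilins and 4 Robos).

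Guidance proteins were first known for steering growing axons, and they also carry contact and short-range signals between endothelial, blood and other cells. Ephrins stay on the cell surface and bind Eph receptor tyrosine kinases of the neighbouring cell, so that both cells can respond, and B-type pairs separate arterial from venous endothelium. Semaphorins bind plexins, the secreted vertebrate class mostly with a neuropilin as co-receptor, while Slits bind Robo receptors and netrins bind DCC, neogenin and UNC5 receptors.

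Every library held EMPs of an individual YS at E10.5 from C57BL/6 embryos that carried *Ezh2*fl/fl. Tie2-Ezh2-KO embryos (5 libraries) also carried Tie2-CreTg/+ and Vav-Ezh2-KO embryos (5 libraries) Vav-CreTg/+ (the Vav-iCre line), and Cre removed the SET domain of EZH2, the methyltransferase of polycomb repressive complex 2. Tie2-Ezh2-WT (3 libraries) and Vav-Ezh2-WT embryos (2 libraries) had no Cre, and these 5 libraries together are called WT. *Tie2*-driven Cre is active in endothelium, and therefore in the cells from which EMPs arise, whereas *Vav*-driven Cre acts in hematopoietic cells that have already emerged. The labels give 500 cells per library and the study's methods a smaller number. The libraries were made in several experiments that the labels do not assign to libraries, so experiment and group cannot be told apart. A bulk library does not show whether a low value means fewer cells of a type or less RNA per cell, which cannot be told apart here.

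Levels are given in RPKM, the reads of a gene scaled to its length and to the reads of the library. The reads on genes ranged from 10407398 to 41025074 in Tie2-Ezh2-WT, were 14890780 and 19957939 in Vav-Ezh2-WT, and ranged from 14818723 to 26825709 in Tie2-Ezh2-KO and from 11506895 to 28714656 in Vav-Ezh2-KO libraries. At these depths 1 read on a transcript of 2 kb was worth 0.0480 RPKM in the shallowest and 0.0122 RPKM in the deepest library, so that many guidance genes rested on a few reads per library. The reads were amplified by PCR and are not independent molecules, so read numbers show counting error only.

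The targeted gene was read first. *Ezh2* measured over the whole gene, with the deleted exons not separated, was at 36.9, 39.5 and 30.1 RPKM in Tie2-Ezh2-WT and at 42.0 and 41.5 RPKM in Vav-Ezh2-WT libraries. It was at 27.8, 26.2, 24.8, 29.5 and 26.5 RPKM in Tie2-Ezh2-KO and at 33.7, 42.4, 37.8, 38.1 and 34.0 RPKM in Vav-Ezh2-KO libraries. Every Tie2-Ezh2-KO value was under the lowest WT value (exact two-sided permutation p = 0.00794, which 5 against 5 libraries cannot go below), and the Vav-Ezh2-KO libraries overlapped with WT (exact p = 0.849). In limma the change of *Ezh2* in Tie2-Ezh2-KO was -0.48 (standard error 0.118, adjusted p = 0.0418), with an adjusted p over 0.05 in limma without Tie2-Ezh2-WT replicate 4 (0.0760) or 10 (0.114), Vav-Ezh2-WT replicate 4 (0.126) or 6 (0.111), or Tie2-Ezh2-KO replicate 7 (0.0802), 11 (0.0976) or 17 (0.0939). It was also over 0.05 in limma with eBayes without trend (0.0923) and with the WT libraries of the same line alone (change -0.39, adjusted p = 0.344). Against Vav-Ezh2-KO the change of *Ezh2* was -0.46 (standard error 0.107, limma adjusted p = 0.0269), with all 5 libraries below. In limma this adjusted p was over 0.05 without Tie2-Ezh2-KO replicate 7 (0.0571), 11 (0.0671) or 17 (0.0571), or Vav-Ezh2-KO replicate 9 (0.0784), 10 (0.0685) or 26 (0.0637), and with eBayes without trend (0.0695). The knockout effects on *Ezh2* differed between the lines by -0.22 (standard error 0.179, limma adjusted p = 0.972), so a difference between the lines was not detected, and 4 of 5 Vav-Ezh2-KO libraries were below both Vav-Ezh2-WT libraries.

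The cell type label was read from 14 EMP markers, none of which was at 0 in any library. Their summed level was 2314 ± 331 RPKM (SD, n = 5) in WT, 1800 ± 274 RPKM (SD, n = 5) in Tie2-Ezh2-KO and 2292 ± 399 RPKM (SD, n = 5) in Vav-Ezh2-KO libraries, with *Mpo*, a myeloid granule enzyme, as the most abundant gene. Without *Mpo* the sum had a mean of 876 RPKM in WT, 931 RPKM in Tie2-Ezh2-KO and 867 RPKM in Vav-Ezh2-KO libraries. *Kit*, whose product was used in the sort, had a mean of 28.6 RPKM in WT, 28.0 RPKM in Tie2-Ezh2-KO and 25.2 RPKM in Vav-Ezh2-KO libraries. *Itga2b*, the integrin gene of the sort, had a mean of 31.1, 28.5 and 28.1 RPKM in this order. The Fc receptor genes *Fcgr3* and *Fcgr2b* had a mean of 124 and 9.07 RPKM in WT libraries, 89.4 and 5.60 RPKM in Tie2-Ezh2-KO and 131 and 11.4 RPKM in Vav-Ezh2-KO libraries, with 4 of the 5 Tie2-Ezh2-KO values under the lowest WT value for each, and neither passed the test (limma adjusted p = 0.131 for both). The markers of the labelled cell type were present in every group, some of them at lower levels in Tie2-Ezh2-KO.

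Markers of other cell types were read beside them, although the sort for KIT, an Fc receptor and an integrin of EMPs, with lineage-positive cells removed, leaves out most such cells. The gene said to lead a list is the one with the highest WT mean, and it need not lead in every library. The 6 primitive erythroid markers, led by the embryonic globin *Hbb-bh1*, summed to 71.9 to 151 RPKM in WT, 199.6 to 865 RPKM in Tie2-Ezh2-KO and 65.7 to 159 RPKM in Vav-Ezh2-KO libraries, with *Slc4a1* at 0 in every WT and Vav-Ezh2-KO library. The 8 neural markers, led by the tubulin *Tubb3*, summed to 0.642 to 1.99 RPKM in WT, 2.72 to 5.67 RPKM in Tie2-Ezh2-KO and 0.599 to 1.08 RPKM in Vav-Ezh2-KO libraries, with *Stmn2* at 0 in every WT library. Both sums were higher in every Tie2-Ezh2-KO library than in any other library. Without *Tubb3* the neural sums overlapped, at 0.474 to 1.14 RPKM in WT libraries and 0.663 to 1.69 RPKM in those of Tie2-Ezh2-KO, and *Map2*, *Dcx* and *Pax6* had lower means in Tie2-Ezh2-KO than in WT. Without *Hbb-bh1* the primitive erythroid sums stayed separate, at 9.01 to 14.5 RPKM in WT libraries and 41.9 to 357 RPKM in those of Tie2-Ezh2-KO. The 8 visceral endoderm markers, led by *Trf* by WT mean, summed to 167 RPKM in Tie2-Ezh2-WT replicate 4 and 221 RPKM in Tie2-Ezh2-KO replicate 7. Their sum was 16.9 to 24.5 RPKM in the other WT, 23.1 to 32.0 RPKM in the other Tie2-Ezh2-KO and 9.18 to 20.8 RPKM in the Vav-Ezh2-KO libraries. Tie2-Ezh2-WT replicate 4 and Tie2-Ezh2-KO replicate 7 stood apart. The limma calls of members and of other pathway genes are also given in fits that leave out 1 of them.

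The 13 endothelial markers, led by *Egfl7*, summed to a mean of 168, 167 and 145 RPKM in WT and in the Tie2 and Vav knockout libraries, with the junction gene *Cdh5* at a mean of 0.211, 0.216 and 0.140 RPKM. Single endothelial genes differed more than the sum, with *Pecam1*, an adhesion gene, at 15.4 to 22.5 RPKM in WT and lower in every library of Tie2-Ezh2-KO, at 6.67 to 13.8 RPKM (limma adjusted p = 0.150). *Lyve1*, a hyaluronan receptor gene, had a mean of 0.387 RPKM in WT libraries and 1.15 RPKM in those of Tie2-Ezh2-KO, *Emcn* of 1.48 and 2.54 RPKM, and *Esam* of 11.7 and 15.5 RPKM, and none of the 4 passed the test. The 9 mesenchyme markers, led by *Pdgfrb*, summed to a mean of 2.88, 3.12 and 2.37 RPKM in the same order, and the 7 macrophage markers, led by *Csf1r*, to 6.62, 6.82 and 7.22 RPKM. *Pdgfra* was at 0 in every WT and Tie2-Ezh2-KO library, and *C1qa* was at 0 in every library. For these 3 lists the ranges of the groups overlapped.

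Most guidance genes were low in EMPs. The median member had a WT mean of 0.0411 RPKM, against 1.85 RPKM over all genes, and 43 members (75.4%) had a WT mean under 0.2 RPKM, against 32.2% of all genes. *Sema3d* was at 0 in every library, a further 20 members never exceeded 0.2 RPKM, and 36 exceeded it in at least 1 library. 5 members exceeded 0.2 RPKM in all 15 libraries (*Sema4d*, *Plxnc1*, *Slit3*, *Plxnd1* and *Epha1*), and only *Sema4d* and *Plxnc1* exceeded 1 RPKM in all of them.

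By WT mean the order began with *Sema4d* at 7.49 ± 2.78 RPKM and *Plxnc1* at 2.99 ± 0.737 RPKM (SD, n = 5). It went on with *Slit3* at 0.873 ± 0.529, *Sema4b* at 0.797 ± 0.275, *Plxnd1* at 0.742 ± 0.260 and *Epha1* at 0.686 ± 0.343 RPKM (SD, n = 5). The first 2 places were clear of their neighbours, since the lowest WT library of *Sema4d* exceeded the highest of *Plxnc1* and the lowest of *Plxnc1* the highest of *Slit3*, while the 4 genes that followed lay within each other's spread. *Efna2* was number 13 in WT and number 2 in Tie2-Ezh2-KO libraries, moving from the percentile 33.5 of all genes to 55.3.

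The number of members above 0.2 RPKM was 12 to 15 (median 13) in WT, 16 to 23 (median 17) in Tie2-Ezh2-KO and 15 to 18 (median 15) in Vav-Ezh2-KO libraries. These were a mean of 23.5%, 33.3% and 27.7% of the members. Among all genes the share above 0.2 RPKM was a mean of 67.1% in WT, 69.6% in Tie2-Ezh2-KO and 67.2% in Vav-Ezh2-KO libraries. It ranged from 66.1% to 68.1%, 68.4% to 70.4% and 66.4% to 67.9% in the same order. The Tie2-Ezh2-KO libraries thus lay above WT for all genes too, and this separation was not particular to the members. The members summed to 17.9 ± 3.23 RPKM in WT, 24.5 ± 7.53 RPKM in Tie2-Ezh2-KO and 21.3 ± 2.01 RPKM in Vav-Ezh2-KO libraries (SD, n = 5), and *Sema4d* was the most abundant member in each library. The sums overlapped between all 3 groups, and the highest were those of Tie2-Ezh2-KO replicates 13 and 17.

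**Figure D1:**
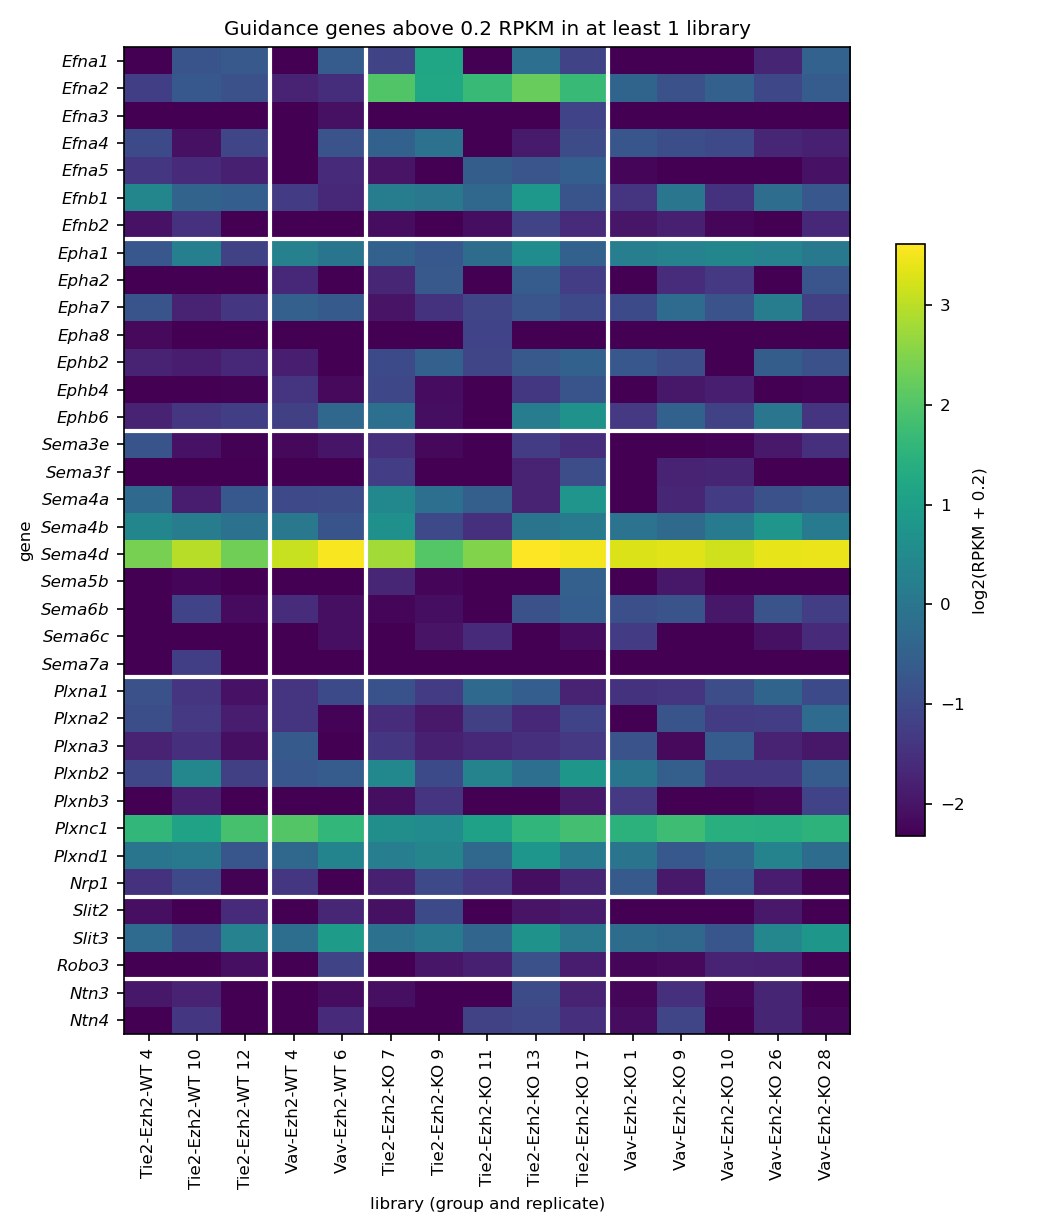
Levels of the 36 guidance genes that exceeded 0.2 RPKM somewhere, as log2(RPKM + 0.2) by colour, with 1 line per gene ordered by family and 1 column per library, with the WT libraries of the Tie2 and Vav lines first and the knockouts of the same lines after them. *Sema4d* is the brightest line, and *Efna2* is bright in the 5 Tie2-Ezh2-KO columns, at 2.15 to 4.46 RPKM.

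Each comparison was tested with limma across all genes on log2(RPKM + 0.2), over the genes that exceeded 0.2 RPKM in 1 or more of its libraries, and a gene was called at an adjusted p under 0.05. On this scale the change of a gene near 0.2 RPKM is smaller than the ratio of its means. A low gene enters a comparison only through the group where it is high, so the tested members are not all members, and counts, directions and medians over them describe the list and support nothing.

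Tie2-Ezh2-KO against WT asks whether loss of EZH2 activity from the endothelial stage moved the guidance genes. Of the 57 members 34 were tested, and limma called 2 higher, *Efna2* and *Ephb2*, against a background of 2.42% of all genes tested (343 of 14154), or 2.73% in either direction. 0 were called lower by limma, as by limma-voom on the recovered reads, which called *Efna2* alone, and 3 members had an unadjusted p under 0.05, all of them higher, against 11% of genes tested (1552 of 14154). The same 2 members were the only ones whose 5 Tie2-Ezh2-KO libraries all lay above the 5 WT libraries, against 3.29% of genes tested, or 4.01% in either direction, and the groups overlapped for the other 32. The median change of the tested members was 0.26, with or without the 2 that were at 0 throughout a group, against 0.01 over all genes tested. By family 7 of 8 ephrins, 7 of 11 Eph receptors, 8 of 18 semaphorins, 7 of 11 plexins and neuropilins, 3 of 7 Slits and Robos and 2 of 2 netrins were tested.

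Vav-Ezh2-KO against WT asks the same for loss in emerged blood cells, and it shares the WT libraries with the comparison before. 27 members were tested and limma called 0, against a background of 0.00733% (1 of 13646 genes tested). Limma-voom also called 0, and 3 members had an unadjusted p under 0.05, *Ephb2*, *Sema4d* and *Sema6b*, against 7.93% of genes tested. No member's Vav-Ezh2-KO libraries were separate from the WT libraries, against 1.41% of genes tested (0.601% above and 0.806% below). The median change was 0.22, against -0.02 over all genes tested.

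Tie2-Ezh2-KO against Vav-Ezh2-KO uses no WT library. Of 35 members tested limma called 1 higher, *Efna2*, against 2.63% of all genes tested (372 of 14120), or 3.51% in either direction, and 0 lower, as did limma-voom. *Efna2* was also the only member whose libraries were separate between the knockouts, against 3.56% of genes tested with Tie2-Ezh2-KO above, 1.67% with it below and 5.23% in either direction. The median change was 0.22, or 0.14 without the 2 members at 0 throughout a group, against 0.04 over all genes tested. 4 members had an unadjusted p under 0.05, *Efna2*, *Efna5*, *Plxnb2* and *Sema4a*, against 16.6% of genes tested (2342 of 14120).

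The difference of the knockout effects between the lines, each measured against the WT libraries of its own line, was tested over all 15 libraries. Limma called 0 of 36 members, against a background of 0.181% (26 of 14394 genes tested, 0.16% higher and 0.0208% lower), and limma-voom called 0. An unadjusted p under 0.05 was found for 2 members, *Efna2* and *Ephb4*, against 6.54% of genes tested. This contrast rests on 3 and 2 WT libraries.

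Among the ligands, *Efna2* encodes ephrin-A2, a membrane-anchored ligand of EphA receptors, and lies at chr10:80179482-80190010 of GRCm38. It was at 0.225, 0.415 and 0.355 RPKM (5, 14 and 31 reads) in Tie2-Ezh2-WT and at 0.0945 and 0.141 RPKM (3 and 6 reads) in Vav-Ezh2-WT libraries. It was at 3.80, 2.15, 2.98, 4.46 and 3.06 RPKM (129, 70, 94, 255 and 105 reads) in Tie2-Ezh2-KO libraries. In Vav-Ezh2-KO libraries it was at 0.548, 0.357, 0.501, 0.285 and 0.458 RPKM (33, 14, 18, 7 and 28 reads). Every Tie2-Ezh2-KO library was above every other library, and the Vav-Ezh2-KO libraries overlapped with WT.

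The mean of *Efna2* was 3.29 ± 0.878 RPKM in Tie2-Ezh2-KO and 0.246 ± 0.137 RPKM in WT (SD, n = 5), a ratio of 13.4. On the log2(RPKM + 0.2) scale *Efna2* rose by 2.98 (standard error 0.303, limma adjusted p = 9.68e-05), and the exact two-sided permutation p was 0.00794. This exact p is unadjusted and is the value of every gene whose 2 groups of 5 libraries do not overlap. The size of the change depended on the processing, from 1.77 to 3.76 over 21 alternatives. Without Tie2-Ezh2-WT replicate 4 the change was 2.98 (limma adjusted p = 3.01e-04) and without Tie2-Ezh2-KO replicate 7 it was 2.93 (limma adjusted p = 6.26e-04). Each of these fits left out 1 of the 2 libraries with high visceral endoderm markers, and they were not left out together. The visceral endoderm marker *Amn* was at 1.52 to 4.66 RPKM in Tie2-Ezh2-KO and at 0 to 0.798 RPKM in WT libraries. Of the 7 markers of this list that were tested, 7 had a change above 0 and limma called 1, *Amn*. *Afp*, for example, overlapped, at 0.840 to 59.9 RPKM in Tie2-Ezh2-KO and 0.502 to 48.2 RPKM in WT libraries. *Amn* did not follow the sum of its list, which was 167 RPKM in Tie2-Ezh2-WT replicate 4 and 23.1 RPKM in Tie2-Ezh2-KO replicate 13. The part of visceral endoderm cells in the rise of *Efna2* was not tested.

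Against Vav-Ezh2-KO, *Efna2* was higher in Tie2-Ezh2-KO by 2.45 (standard error 0.268, limma adjusted p = 2.47e-04), with all 5 libraries above and a ratio of means of 7.65, and by 2.39 with Tie2-Ezh2-KO replicate 7 left out (limma adjusted p = 0.00117). In Vav-Ezh2-KO against WT its change was 0.54 (standard error 0.279, limma adjusted p = 0.659, exact p = 0.0556). Against the Vav-Ezh2-WT libraries alone, both of which lay below all 5 Vav-Ezh2-KO libraries, it was 0.97 (standard error 0.361, limma adjusted p = 0.862). The knockout effects on *Efna2* differed between the lines by 1.72 (standard error 0.448, limma adjusted p = 0.193), which missed the threshold. With a pseudocount of 1 that difference was 1.31 and passed it (limma adjusted p = 0.0408).

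**Figure D2:**
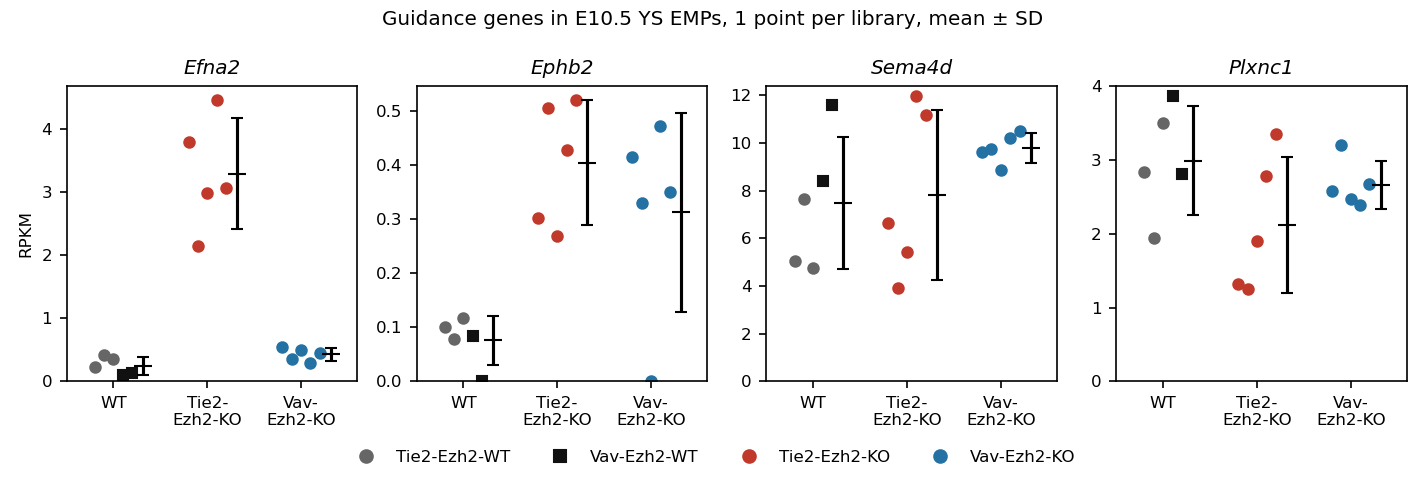
Levels in RPKM of *Efna2*, *Ephb2*, *Sema4d* and *Plxnc1*, 1 point per library, in WT (circles for the Tie2 line, squares for the Vav line) and in the knockouts of both lines, with the mean and SD of 5 libraries beside the points. The Tie2-Ezh2-KO libraries sit between 2.15 and 4.46 RPKM for *Efna2*, above all others, while the groups overlap for *Sema4d* and *Plxnc1*.

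*Efna1*, the A-type ephrin with the highest WT mean, encodes a ligand best known from endothelium. It was at 0, 0.385 and 0.431 RPKM in Tie2-Ezh2-WT, 0 and 0.458 RPKM in Vav-Ezh2-WT, 0.268, 2.03, 0, 0.704 and 0.265 RPKM in Tie2-Ezh2-KO and 0, 0, 0, 0.106 and 0.530 RPKM in Vav-Ezh2-KO libraries. Each group held a library at 0 and the groups overlapped, and the change in Tie2-Ezh2-KO was 0.64 (standard error 0.573, limma adjusted p = 0.855). It was 0.17 without Tie2-Ezh2-KO replicate 9, 1.04 without Tie2-Ezh2-KO replicate 11 and 0.39 without replicate 4 of either WT line. *Efnb1*, the B-type ephrin with the highest WT mean, encodes a transmembrane ligand of EphB receptors. It ranged from 0.123 to 1.12 RPKM in WT, 0.381 to 1.60 RPKM in Tie2-Ezh2-KO and 0.164 to 0.800 RPKM in Vav-Ezh2-KO libraries, and its change in Tie2-Ezh2-KO was 0.70 (standard error 0.408, limma adjusted p = 0.644). The WT lines of *Efnb1* were separate, at 0.479 to 1.12 RPKM in the 3 Tie2-Ezh2-WT and 0.123 and 0.206 RPKM in the 2 Vav-Ezh2-WT libraries, and against Tie2-Ezh2-WT alone the change was 0.19 (standard error 0.422). Neither gene passed the test.

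*Efna5*, another A-type ephrin, was named after its values were seen. It was at 0.0477, 0, 0.475, 0.390 and 0.484 RPKM in Tie2-Ezh2-KO, at 0 to 0.0464 RPKM in Vav-Ezh2-KO and at 0 to 0.183 RPKM in WT libraries. Against Vav-Ezh2-KO it was higher in Tie2-Ezh2-KO by 1.0 (standard error 0.360, limma adjusted p = 0.156), which missed the threshold, and without Tie2-Ezh2-KO replicate 9, which was at 0, the change was 1.27 and passed it (limma adjusted p = 0.0354). 3 of the 5 Tie2-Ezh2-KO libraries were above all others.

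Among the Eph receptors, *Ephb2* encodes a receptor tyrosine kinase for B-type ephrins and lies at chr4:136647536-136836326 of GRCm38. It was at 0.101, 0.0794 and 0.117 RPKM (5, 6 and 23 reads) in Tie2-Ezh2-WT and at 0.0843 and 0 RPKM (6 and 0 reads) in Vav-Ezh2-WT libraries. It was at 0.302, 0.507, 0.268, 0.429 and 0.520 RPKM (23, 37, 19, 55 and 40 reads) in Tie2-Ezh2-KO libraries. In Vav-Ezh2-KO libraries it was at 0.415, 0.330, 0, 0.473 and 0.350 RPKM (56, 29, 0, 26 and 48 reads). All Tie2-Ezh2-KO libraries and 4 of the 5 Vav-Ezh2-KO libraries were above every WT library, and Vav-Ezh2-KO replicate 10 held no read of the gene.

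On the log2(RPKM + 0.2) scale *Ephb2* rose by 1.13 in Tie2-Ezh2-KO (standard error 0.261, limma adjusted p = 0.0308, exact p = 0.00794), from a mean of 0.0763 ± 0.0452 RPKM in WT to 0.405 ± 0.116 RPKM (SD, n = 5). The exact p is unadjusted and only restates that the groups did not overlap. The limma call depended on single libraries. It was lost without Tie2-Ezh2-WT replicate 4 (limma adjusted p = 0.0561), 10 (0.0729) or 12 (0.0516), without Vav-Ezh2-WT replicate 4 (0.0733) or 6 (0.0969), and without Tie2-Ezh2-KO replicate 9 (0.0603), 13 (0.0717) or 17 (0.0896). It was kept without Tie2-Ezh2-KO replicate 7 (0.0495) or 11 (0.0350), and the change was above 0 in each of these fits, between 1.01 and 1.21. With quantile normalization, limma-voom or the WT libraries of the same line alone the call was lost too (adjusted p = 0.151, 0.0587 and 0.244). The size of the change of *Ephb2* depended on the scale, from 0.38 with a pseudocount of 1 to 2.82 by limma-voom.

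In Vav-Ezh2-KO against WT the change of *Ephb2* was 0.80 (standard error 0.334, limma adjusted p = 0.599), and the exact two-sided permutation p, not adjusted for the number of genes, was 0.0476. Between the knockouts it was 0.33 (standard error 0.342, limma adjusted p = 0.699), and 0.017 without Vav-Ezh2-KO replicate 10, the library with no *Ephb2* read. The knockout effects on *Ephb2* differed between the lines by 0.0038 (standard error 0.540, limma adjusted p = 0.999), a difference whose direction turned under quantile normalization and under scaling to a common median. It also turned without Tie2-Ezh2-WT replicate 10 (-0.044), Vav-Ezh2-WT replicate 4 (-0.25), Tie2-Ezh2-KO replicate 9 (-0.058), 13 (-0.016) or 17 (-0.064), or Vav-Ezh2-KO replicate 10 (-0.31). A difference between the 2 knockouts was therefore not detected for *Ephb2*.

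*Epha2* encodes an A-type Eph receptor found on epithelium and endothelium. It was at 0.120 RPKM in Vav-Ezh2-WT replicate 4 and 0 in the other WT libraries, and at 0.112, 0.433, 0, 0.465 and 0.221 RPKM in Tie2-Ezh2-KO and 0, 0.138, 0.196, 0 and 0.390 RPKM in Vav-Ezh2-KO libraries. Its change in Tie2-Ezh2-KO was 0.89 (standard error 0.341, limma adjusted p = 0.284, exact p = 0.0873). *Ephb4*, the receptor that marks venous endothelium, was at 0, 0, 0.00559, 0.169 and 0.0230 RPKM in WT libraries, 0.288, 0.0300, 0, 0.188 and 0.385 RPKM in Tie2-Ezh2-KO and 0 to 0.0816 RPKM in Vav-Ezh2-KO libraries. Its change was 0.58 in Tie2-Ezh2-KO against WT (standard error 0.337, limma adjusted p = 0.639) and its knockout effects differed between the lines by 1.12 (standard error 0.511, limma adjusted p = 0.716). Both genes were low in all groups and neither passed a test.

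*Epha1*, the A-type receptor with the highest WT mean, was at 0.246 to 1.01 RPKM in WT, 0.420 to 1.28 RPKM in Tie2-Ezh2-KO and 0.851 to 1.12 RPKM in Vav-Ezh2-KO libraries. *Ephb6*, a receptor that lacks kinase activity, was at 0.102 to 0.6 RPKM in WT, 0 to 1.44 RPKM in Tie2-Ezh2-KO and 0.176 to 0.809 RPKM in Vav-Ezh2-KO libraries. The groups overlapped for both.

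Among the semaphorins, *Sema4d* encodes a membrane-bound ligand known on leukocytes and lies at chr13:51685529-51793678 of GRCm38. It was at 5.05, 7.64 and 4.76 RPKM in Tie2-Ezh2-WT and at 8.41 and 11.6 RPKM in Vav-Ezh2-WT libraries. It was at 6.64, 3.90, 5.41, 12 and 11.2 RPKM in Tie2-Ezh2-KO and at 9.63, 9.76, 8.86, 10.2 and 10.52 RPKM in Vav-Ezh2-KO libraries. The groups overlapped, both Vav-Ezh2-WT libraries were above the Tie2-Ezh2-WT libraries, and the Vav-Ezh2-KO libraries were closest together, with a mean of 9.80 ± 0.633 RPKM (SD, n = 5).

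The change of *Sema4d* was 0.45 in Vav-Ezh2-KO against WT (standard error 0.209, limma adjusted p = 0.628), and -0.012 against the Vav-Ezh2-WT libraries alone. In Tie2-Ezh2-KO it was 0.015 against WT (standard error 0.316, limma adjusted p = 0.996) and 0.32 when only WT of its own line was used, with a direction that turned when each library was scaled to a common median. It also turned without Tie2-Ezh2-WT replicate 4 (-0.10) or 12 (-0.12) or Tie2-Ezh2-KO replicate 13 (-0.17) or 17 (-0.14). No change of *Sema4d* passed the test.

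*Sema3e*, the class 3 semaphorin with the highest WT mean, encodes a secreted ligand that binds plexin-D1. It was at 0.00355 to 0.378 RPKM in WT, 0 to 0.212 RPKM in Tie2-Ezh2-KO and 0 to 0.147 RPKM in Vav-Ezh2-KO libraries. *Sema3f*, a secreted ligand that acts through neuropilin-2, was listed at 0 in every WT library, at 0.222, 0, 0, 0.0989 and 0.330 RPKM in Tie2-Ezh2-KO and at 0, 0.0960, 0.105, 0 and 0 RPKM in Vav-Ezh2-KO libraries. Its fitted change of 0.61 in Tie2-Ezh2-KO against WT (standard error 0.3, limma adjusted p = 0.496, exact p = 0.167) depends on the pseudocount and is no bound. *Sema6b*, a transmembrane semaphorin named after its values were seen, was at 0.0597 to 0.371 RPKM in Vav-Ezh2-KO and 0 to 0.254 RPKM in WT libraries, with a change of 0.71 (standard error 0.317, limma adjusted p = 0.620). *Sema4a*, also transmembrane and named after its values were seen, was at 0.0733 to 0.613 RPKM in WT, 0.0973 to 1.51 RPKM in Tie2-Ezh2-KO and 0 to 0.434 RPKM in Vav-Ezh2-KO libraries. None of the semaphorins passed the test in any of the 4 limma comparisons or by limma-voom. An unadjusted p under 0.05 was reached by 0 of 8 tested in Tie2-Ezh2-KO against WT and 2 of 7 in Vav-Ezh2-KO against WT. It was reached by 1 of 8 between the knockouts and 0 of 9 in the difference between the lines. The shares of all genes tested were 11%, 7.93%, 16.6% and 6.54% in this order.

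Among the semaphorin receptors, *Plxnc1* encodes plexin-C1, the receptor of semaphorin 7A, and lies at chr10:94790866-94945015 of GRCm38. It was at 2.84, 1.95 and 3.50 RPKM in Tie2-Ezh2-WT and at 3.87 and 2.82 RPKM in Vav-Ezh2-WT libraries. It was at 1.32, 1.25, 1.90, 2.78 and 3.35 RPKM in Tie2-Ezh2-KO and at 2.58, 3.21, 2.47, 2.39 and 2.67 RPKM in Vav-Ezh2-KO libraries. 3 of the 5 Tie2-Ezh2-KO libraries were below all WT libraries and the other 2 lay among them, and the change was -0.52 (standard error 0.3, limma adjusted p = 0.637, exact p = 0.103). *Sema7a*, the gene of its ligand, was at 0.232 RPKM in Tie2-Ezh2-WT replicate 10 and at 0 in the other 14 libraries.

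*Plxnb2* encodes plexin-B2, a receptor of class 4 semaphorins. It was at 0.278, 1.15, 0.238, 0.410 and 0.466 RPKM in WT libraries, 1.16, 0.299, 1.06, 0.694 and 1.55 RPKM in Tie2-Ezh2-KO and 0.783, 0.497, 0.181, 0.186 and 0.462 RPKM in Vav-Ezh2-KO libraries. The groups overlapped. Its change was 0.71 in Tie2-Ezh2-KO against WT (standard error 0.394, limma adjusted p = 0.608) and 0.87 against Vav-Ezh2-KO (standard error 0.382, limma adjusted p = 0.264). *Plxnb1*, which encodes the best known plexin receptor of semaphorin 4D, was at 0 in every WT and Vav-Ezh2-KO library and at 0.0219 RPKM at most in Tie2-Ezh2-KO libraries.

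*Plxnd1*, the gene of the receptor of semaphorin 3E, was at 0.402 to 1.08 RPKM in WT, 0.606 to 1.53 RPKM in Tie2-Ezh2-KO and 0.417 to 1.06 RPKM in Vav-Ezh2-KO libraries. *Plxna1*, a plexin that signals for neuropilin-bound semaphorins, was at 0.0432 to 0.351 RPKM, 0.0964 to 0.613 RPKM and 0.165 to 0.549 RPKM in the same groups. *Nrp1*, the gene of a co-receptor for secreted semaphorins and for VEGF-A, was at 0 to 0.299 RPKM, 0.0315 to 0.298 RPKM and 0.00588 to 0.437 RPKM. The groups overlapped for all 3, and plexins and neuropilins had 0 calls by limma or limma-voom in each of the 4 comparisons. An unadjusted p under 0.05 was found for *Plxnb2* alone, 1 of 8 tested between the knockouts, against 16.6% of genes tested there.

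Of the Slits and Robos, *Slit3*, the gene of a secreted Robo ligand, was the most abundant, at 0.635, 0.304 and 1.04 RPKM in Tie2-Ezh2-WT and 0.686 and 1.69 RPKM in Vav-Ezh2-WT libraries. It was at 0.729, 0.877, 0.567, 1.44 and 0.833 RPKM in Tie2-Ezh2-KO and 0.652, 0.598, 0.404, 1.13 and 1.55 RPKM in Vav-Ezh2-KO libraries. The means of 0.873, 0.889 and 0.868 RPKM in WT and in the Tie2 and Vav knockouts differed by less than the spread within each group. Its receptors were lower, with *Robo3* at 0 to 0.265 RPKM in WT, 0 to 0.355 RPKM in Tie2-Ezh2-KO and 0 to 0.100 RPKM in Vav-Ezh2-KO libraries, and *Robo1*, *Robo2* and *Robo4* at 0.127 RPKM or less in every library. The netrin *Ntn4*, which encodes a secreted laminin-like ligand, was at 0 to 0.184 RPKM, 0 to 0.278 RPKM and 0 to 0.270 RPKM in WT and in the Tie2 and Vav knockout libraries. Slits, Robos and netrins had 0 calls by limma or limma-voom, and 0 members with an unadjusted p under 0.05, in each of the 4 comparisons. Among all genes tested the share with an unadjusted p under 0.05 was 6.54% to 16.6%.

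**Figure D3:**
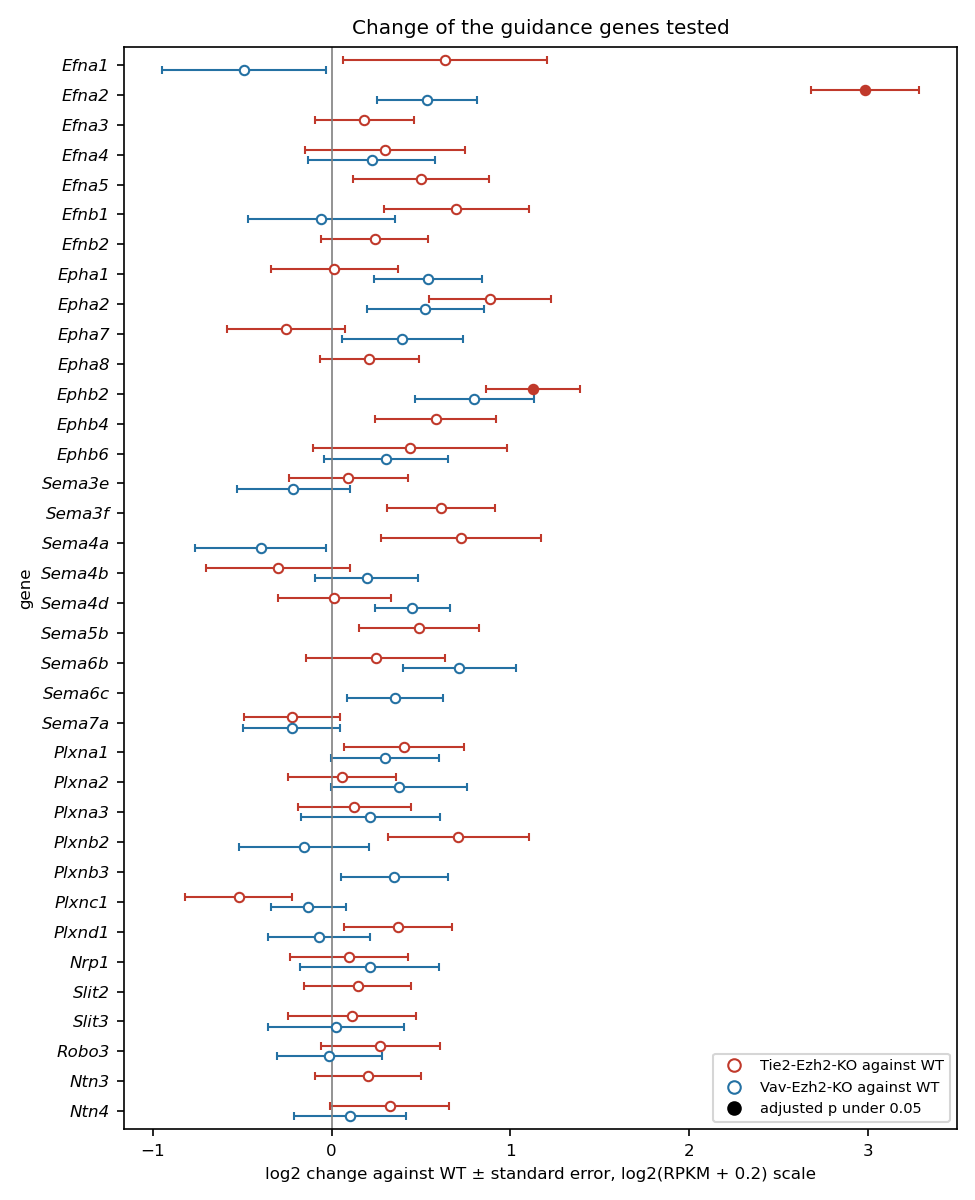
Change of each tested guidance gene on the log2(RPKM + 0.2) scale with its standard error, for Tie2-Ezh2-KO (red) and Vav-Ezh2-KO (blue) against the same 5 WT libraries, with filled points for an adjusted p under 0.05. The filled points are *Efna2* at 2.98 and *Ephb2* at 1.13 in Tie2-Ezh2-KO.

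Of 16 further netrin receptors and guidance cues 13 were in the table. Limma called 0 of 4 tested in Tie2-Ezh2-KO against WT, 0 of 4 in Vav-Ezh2-KO against WT and 0 of 5 in the difference between the lines, against 2.73%, 0.00733% and 0.181% of genes tested. An unadjusted p under 0.05 was found for 2, 2 and 1 of them, against 11%, 7.93% and 6.54% of genes tested. Limma-voom called *Neo1*, the gene of the netrin and RGM receptor neogenin, in Tie2-Ezh2-KO against WT and 0 in the other 2 comparisons. *Neo1* was at 0 in every WT library and at 0.246, 0.283, 0.110, 0.136 and 0.0337 RPKM in Tie2-Ezh2-KO libraries (limma adjusted p = 0.143), and was named after its values were seen. Between the knockouts limma called 1 of 5 higher in Tie2-Ezh2-KO, against 2.63% of genes tested, and 2 of 5 had an unadjusted p under 0.05, against 16.6%. The called gene was *Flrt3*, which encodes a membrane ligand of UNC5 receptors. *Flrt3* was at 0.775, 3.32, 1.34, 2.16 and 1.47 RPKM in Tie2-Ezh2-KO and at 0.156, 0.0120, 0.392, 0.498 and 0.261 RPKM in Vav-Ezh2-KO libraries, a change of 2.10 (standard error 0.395, limma adjusted p = 0.00762), or 2.33 with Tie2-Ezh2-KO replicate 7 left out (limma adjusted p = 0.00587). The WT libraries, with a mean of 1.15 ± 0.686 RPKM (SD, n = 5), lay nearer to Tie2-Ezh2-KO. *Rgmb*, a neogenin ligand, and *Flrt2*, an UNC5 ligand, followed *Flrt3* in WT at a mean of 0.133 and 0.0619 RPKM. *Unc5a*, a netrin receptor gene named after its values were seen, had a mean of 0.0511 RPKM in WT and 0.228 RPKM in Vav-Ezh2-KO libraries. Its mean was 1.01 RPKM in Tie2-Ezh2-KO libraries, which ranged from 0 to 1.99 RPKM, and it was not called.

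Of 40 intracellular effectors of these receptors 39 were in the table, led in WT by the actin-severing *Cfl1* at 1385 ± 55.7 RPKM, the kinase gene *Fyn* at 21.5 ± 2.95 RPKM and the adaptor gene *Nck1* at 21.0 ± 3.81 RPKM (SD, n = 5). Limma and limma-voom called 0 of 32 in Tie2-Ezh2-KO against WT, 0 of 30 in Vav-Ezh2-KO against WT and 0 of 32 in the difference between the lines, with an unadjusted p under 0.05 for 4, 2 and 2 of them, against 11%, 7.93% and 6.54% of genes tested. Between the knockouts limma called 2 of 32 higher in Tie2-Ezh2-KO and 0 lower, against 2.63% and 0.871% of genes tested, with an unadjusted p under 0.05 for 4, against 16.6%, while limma-voom called 3 higher and 0 lower. *Chn2*, which encodes a Rac GTPase-activating protein downstream of Eph receptors, was at 8.06, 6.67, 9.5, 6.21 and 7.78 RPKM in Tie2-Ezh2-KO and 4.98, 4.21, 3.10, 4.16 and 3.04 RPKM in Vav-Ezh2-KO libraries, a change of 0.94 (standard error 0.197, limma adjusted p = 0.0142), or 0.92 with Tie2-Ezh2-KO replicate 7 left out (limma adjusted p = 0.0415). *Crmp1*, which encodes a semaphorin response mediator, was at 0.840, 0.895, 1.71, 0.195 and 0.253 RPKM in Tie2-Ezh2-KO, and in Vav-Ezh2-KO libraries at 0.177 RPKM in replicate 26 and 0 in the others, a change of 1.87 (standard error 0.410, limma adjusted p = 0.0199). Both genes separated the knockouts, as did 3.56% of all genes tested with Tie2-Ezh2-KO above, or 5.23% in either direction. In WT libraries *Chn2* was at 1.98 to 6.27 RPKM and *Crmp1* at 0 to 0.364 RPKM, and both overlapped with Tie2-Ezh2-KO. The call of *Crmp1* was lost in limma without Vav-Ezh2-KO replicate 1 (adjusted p = 0.0506) or 28 (0.0586) or Tie2-Ezh2-KO replicate 7 (0.0549).

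The marker lists were tested gene by gene in the same fits. In Tie2-Ezh2-KO against WT limma called 2 of 6 primitive erythroid markers higher, 1 of 7 visceral endoderm markers higher, 1 of 3 neural markers higher, 1 of 14 EMP markers lower and 1 of 8 megakaryocyte markers lower. Of the EMP markers 10 had a change below 0, with a median of -0.21, and 5 an unadjusted p under 0.05, 4 of these lower. It called 0 of 13 endothelial, 0 of 5 mesenchyme and 0 of 6 macrophage markers, with an unadjusted p under 0.05 for 3, 1 and 1 of them and 0 calls by limma-voom in these 3 lists. Of all genes tested limma called 2.73%, and 11% had an unadjusted p under 0.05. The embryonic globin genes *Hba-x* and *Hbb-bh1* had a mean of 166 and 274 RPKM in Tie2-Ezh2-KO against 1.36 and 114 RPKM in WT (changes 6.33 and 1.18, limma adjusted p = 8.88e-05 and 0.0441). The endocytic co-receptor gene *Amn* had a mean of 2.43 against 0.183 RPKM and *Tubb3* of 2.65 against 0.747 RPKM (changes 3.01 and 1.79, limma adjusted p = 0.00155 and 0.0314). For these 4 genes no Tie2-Ezh2-KO library overlapped with WT, as for *Efna2* and *Ephb2*. *Mpo* had a mean of 868 against 1438 RPKM and the platelet receptor gene *Gp1ba* of 4.06 against 8.11 RPKM (changes -0.75 and -0.94, limma adjusted p = 0.0414 and 0.0495), with 4 of 5 libraries of each below all WT libraries. The calls of *Hba-x* and *Amn* held without any single library, but limma-voom lost *Hba-x* (adjusted p = 0.0729), *Hbb-bh1* (0.0939) and *Gp1ba* (0.108). In limma, scaling to a common median lost *Hbb-bh1* (adjusted p = 0.110) and *Mpo* (0.113), quantile normalization lost *Mpo* (0.0685), and the WT libraries of the same line alone lost *Hbb-bh1* (0.246), *Mpo* (0.312) and *Gp1ba* (0.231). No filter and eBayes without trend each lost *Hbb-bh1*, *Mpo*, *Gp1ba* and *Tubb3* (limma adjusted p up to 0.118), and a pseudocount of 1 lost *Mpo* and *Gp1ba* (up to 0.0605). In limma the call was lost for *Hbb-bh1* without any WT library or Tie2-Ezh2-KO replicate 7, 9 or 11 (adjusted p up to 0.101), and for *Tubb3* without Tie2-Ezh2-WT replicate 4, 10 or 12 or Tie2-Ezh2-KO replicate 7, 11, 13 or 17 (up to 0.0845). In limma it was lost for *Mpo* without Tie2-Ezh2-WT replicate 10, Vav-Ezh2-WT replicate 4 or 6, or Tie2-Ezh2-KO replicate 7, 9 or 13 (adjusted p up to 0.117), and for *Gp1ba* without Tie2-Ezh2-WT replicate 4 or 10, either Vav-Ezh2-WT library, or Tie2-Ezh2-KO replicate 7, 9, 11 or 17 (up to 0.146).

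In Vav-Ezh2-KO against WT limma and limma-voom called 0 markers in every list. An unadjusted p under 0.05 was found for 1 EMP, 2 endothelial, 1 visceral endoderm and 1 megakaryocyte marker and 0 in the other lists, against 7.93% of genes tested. The change was below 0 for 10 of 13 endothelial markers (median -0.30) and 6 of 6 visceral endoderm markers tested (median -1.14). Between the knockouts limma called *Hba-x* (5.64), *Hbb-bh1* (1.29), *Amn* (3.42), *Tubb3* (2.32) and the EMP marker *Gfi1b* (0.57), a transcription factor gene, higher in Tie2-Ezh2-KO, each with all 5 libraries above, and 0 markers lower. Of the 14 EMP markers, however, 10 had a change below 0, with a median of -0.17, and 6 an unadjusted p under 0.05, 4 of these lower. The limma adjusted p was 4.22e-04, 0.0302, 1.49e-04, 3.73e-04 and 0.0300 in this order. In limma the call of *Hbb-bh1* was lost without Tie2-Ezh2-KO replicate 7 or 11 or Vav-Ezh2-KO replicate 1, 9 or 10 (adjusted p up to 0.0736), and that of *Gfi1b* without Tie2-Ezh2-KO replicate 7 or 11 or Vav-Ezh2-KO replicate 1, 9, 10 or 28 (up to 0.0833). Both were also lost with no filter, eBayes without trend, a common median or limma-voom (adjusted p up to 0.0922 and 0.255). Limma called 0 of 13 endothelial markers, but 7 of them had an unadjusted p under 0.05, 6 of these higher in Tie2-Ezh2-KO, against 16.6% of genes tested, and the median change of the list was 0.52. Of the 7 visceral endoderm markers tested 7 had a change above 0, with a median of 1.68, and 3 an unadjusted p under 0.05. Limma called 0 of 5 mesenchyme, 0 of 6 macrophage and 0 of 8 megakaryocyte markers, with an unadjusted p under 0.05 for 1, 0 and 2 of them. Limma-voom called *Hba-x*, *Amn*, *Tubb3* and the endothelial *Lyve1* higher and *Mpo* lower.

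In the difference between the lines limma called *Tubb3* (3.82, adjusted p = 0.00669), which held without any single library but not by limma-voom (adjusted p = 0.0687), and *Hba-x* (6.41, adjusted p = 0.0457). In limma the call of *Hba-x* was lost without any WT library, without Tie2-Ezh2-KO replicate 9, 11 or 17 and without Vav-Ezh2-KO replicate 1, 10 or 28 (adjusted p up to 0.390), and also with a pseudocount of 0.05, no filter, eBayes without trend, quantile normalization, a common median or limma-voom (up to 0.748). Limma called 0 markers of the other lists, and limma-voom called 0 markers in every list. An unadjusted p under 0.05 was found for 4 EMP, 2 endothelial, 1 visceral endoderm and 1 mesenchyme marker and 0 macrophage and megakaryocyte markers, against 6.54% of genes tested. The part of primitive erythroid, neural or other cells in the values of *Efna2* and *Ephb2* was not tested.

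Genes beside the 2 called members were read as well, a choice made after the calls were known. Within 100 kb of *Efna2* 8 other genes of the table were tested in Tie2-Ezh2-KO against WT and limma called 0 (lowest adjusted p = 0.767), with 0 at an unadjusted p under 0.05. Within 100 kb of *Ephb2* 7 were in the table, 5 were tested and limma called 0 (lowest adjusted p = 0.716). Limma called 2.73% of all genes tested in this comparison, and 11% had an unadjusted p under 0.05. Counts of 0 among so few neighbours lie near these shares and are not a result about either locus. *Epha8*, a tested neighbour of *Ephb2*, is itself a member.

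The promoter of *Efna2* is shown because it is the member with the clearest change and because EZH2 acts mostly at promoters rich in CG dinucleotides. In RefSeq sequences of GRCm38.p6, 50 members and 12521 genes of the table had a promoter entry. The CG dinucleotides in the 250 bases before the start of an entry were counted. *Efna2* had 25 and a GC content of 73.6%, and 20.0% of the genes of the table had as many or more. *Ephb2* had 20 (33.7%) and *Sema4d* 2 (94.8%), with a median of 16.5 over members and 15 over all genes of the table. The *Sema4d* entries lie inside its span on the minus strand, the outermost ending at chr13:51756933, while the gene reaches 51793678. Its count therefore describes inner starts and not the promoter at the outer start of the gene. The median was 18 in the 34 members above 0.2 RPKM in at least 1 library and 14 in the 16 that never were. Some members that were not called had more than *Efna2*, such as *Epha8* with 46, *Slit3* with 35 and *Efna5* with 32, and others had fewer. A high count was thus not particular to *Efna2*. These counts describe the sequence and name no cause, and no binding was measured here. The 250 bases before the start of *Efna2*, at chr10:80179232-80179481 on the plus strand, read 5′ to 3′ with each CG in capitals.
Efna2: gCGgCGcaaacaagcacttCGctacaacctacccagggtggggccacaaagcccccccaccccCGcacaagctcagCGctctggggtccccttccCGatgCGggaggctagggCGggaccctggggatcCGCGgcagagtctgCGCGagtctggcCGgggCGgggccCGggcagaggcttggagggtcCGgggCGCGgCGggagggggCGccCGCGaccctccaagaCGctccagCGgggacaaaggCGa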

How the data were processed

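The authors aligned 75-base single-end reads of SMARTer libraries (16 PCR cycles) with TopHat2 2.0.13 to GRCm38/mm10, counted RefSeq genes with featureCounts and deposited linear RPKM values, which were used as deposited. Because the deposited unit is RPKM, the tests used limma on log2(RPKM + 0.2) and not a test of counts. Reads were worked back from RPKM, with values within 0.01 of a whole read for 16877 of 16877 genes above 0, and served for limma-voom and for the read numbers printed. For *Epha5*, *Robo4* and *Sema3f* the implied length was far below the annotated one, so their reads were not resolved. Reads copied by PCR are not independent molecules. limma 3.58.1 (lmFit, eBayes with trend) in R 4.3.3 was fitted per comparison over genes that exceeded 0.2 RPKM in 1 or more libraries. Its p was adjusted after Benjamini and Hochberg and called under 0.05, and exact permutation tests used 5 against 5 libraries. Python 3.11.15, numpy 2.4.6, pandas 2.3.3 and matplotlib 3.10.9 made the summaries. The fit was tested on simulated data. Alternatives were pseudocounts 1 and 0.05, no filter, a stricter filter, eBayes without trend, quantile normalization, a common median, array weights, limma-voom, WT of the same line only, 1 fit of all libraries and fits without 1 library. Genes were named if past the threshold, above a mean of 5 RPKM in a group, highest in WT in their class, or among the 5 lowest p not past the threshold in Tie2-Ezh2-KO against WT. *Efna5*, *Sema6b*, *Sema4a*, *Sema4b*, *Sema3d*, *Sema7a*, *Plxnd1*, *Plxnb1*, *Robo1*, *Robo2*, *Robo4*, *Neo1* and *Unc5a* were named outside this rule, after their values were seen. Pathway lists were netrin receptors and other guidance cues, and intracellular effectors. Marker lists were EMP, endothelium, primitive erythroid, visceral endoderm, mesenchyme, macrophage, megakaryocyte and neural. *Spi1* was matched as *Sfpi1* and *Adgre1* as *Emr1*, and *Unc5c*, *Ntng1*, *Rgma*, *Ablim3*, *Sox17*, *Hba-a1*, *Hba-a2*, *Elavl3* and *Sox2* were not in the table. Members and lists were chosen with earlier results of these data known.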

Additional observations from a re-analysis of the deposited data

Results flagged for a closer look

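Among 56 groups of 5 libraries a Dixon test (ratio above 0.71) singled out 9 values. About 1 group in 20 would be singled out by chance if the values were normally distributed. Many of these values are RPKM near 0, with libraries at 0, so that rate does not hold here and no excess can be read from the 9. In WT, *Epha2* was at 0.120 RPKM in Vav-Ezh2-WT replicate 4 because the other 4 libraries were at 0, and *Ephb4* was at 0.169 RPKM in the same library, with the others at 0.0230 RPKM or less. *Ephb6* was at 0.5997 RPKM and *Robo3* at 0.265 RPKM in Vav-Ezh2-WT replicate 6, with the others at most at 0.232 and 0.0361 RPKM. *Plxnb2* was at 1.15 RPKM in Tie2-Ezh2-WT replicate 10 (others 0.238 to 0.466 RPKM) and *Sema3e* at 0.378 RPKM in Tie2-Ezh2-WT replicate 4 (others 0.00355 to 0.0511 RPKM). In Tie2-Ezh2-KO replicate 13 *Epha1* was at 1.28 RPKM (others 0.420 to 0.660 RPKM) and *Robo3* at 0.355 RPKM (others 0 to 0.0857 RPKM). In Vav-Ezh2-KO replicate 28 *Efna1* was at 0.530 RPKM (others 0 to 0.106 RPKM). Each value stood far above the other 4 of its group, and all were kept.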

How the results depend on the processing

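No paired analysis was possible because the labels give no litter or other pairing of libraries, and equal replicate numbers are not said to mark a pair. In Tie2-Ezh2-KO against WT 386 genes were called, 187 with WT of the same line only and 262 to 438 without 1 library. The 2 members called became 1 with quantile normalization, limma-voom or WT of the same line only, and 1 to 2 without 1 library (1 in 8 of 10 fits), because *Ephb2* was lost, while *Efna2* held in all 21 alternatives. The change of *Sema4d* there turned to -0.022 with a common median, and without 1 library ranged from -0.17 (Tie2-Ezh2-KO replicate 13) to 0.23 (Tie2-Ezh2-KO replicate 9), and was 0.32 with WT of the same line only. In Vav-Ezh2-KO against WT 1 gene was called, 2 with a common median or WT of the same line only, 1 to 2 without 1 library, and 0 by limma-voom, where 1146 had an unadjusted p under 0.05. *Sema4d* turned to -0.012 with WT of the same line only. Between the knockouts 495 genes were called, 765 with array weights, 320 without Vav-Ezh2-KO replicate 28 and 969 without Tie2-Ezh2-KO replicate 9. Members called were 1 to 2 without 1 library, and *Efna2* held in all 20 alternatives. In the difference between the lines 26 genes were called, 16 with no filter, 12 with quantile normalization, 10 with a common median, 78 with array weights, 2 by limma-voom and 8 to 32 without 1 library, and the members called rose from 0 to 1 with pseudocount 1. The median change of all genes there moved from 0.06 to -0.07 with a common median. *Ephb2* there turned to -0.21 with pseudocount 0.05, -0.23 with quantile normalization, -0.028 with a common median, -0.043 with array weights and -1.38 by limma-voom, and ranged from -0.31 (without Vav-Ezh2-KO replicate 10) to 0.26 (without Vav-Ezh2-WT replicate 6). The stricter filter gave no value in 1 or more comparisons for *Efna1*, *Efna5*, *Epha2*, *Ephb2*, *Ephb4*, *Nrp1*, *Ntn4*, *Robo3*, *Sema3e*, *Sema3f*, *Sema6b* and *Crmp1*. The values listed here were narrowed to the reported changes after they were seen. Over the members of the naming rule with *Efna5* and *Sema6b*, 20 in all and without *Sema4a*, 1618 alternative values of 77 results comprised 1509 with the same direction and call, 11 calls lost, 2 gained and 96 turned in direction, 0 of these among the 3 results past the threshold.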
